A study of Mus musculus with 8 samples.

Results

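The 10 genes described here mark the endothelium of the liver, the cells that line its vessels, and were read in RNA sequencing of sorted mouse bile duct cells. They are Stab1, Stab2, Clec4g, Gpr182 and Lyve1, which are typical of the sinusoids, and Kdr, Pecam1, Eng, Ptprb and Vwf, which belong to vascular endothelium more widely. They were chosen by name from what they are known to mark, though earlier results of these data had been seen. All 10 were found among the 20377 gene symbols of the count tables. The libraries came from wild type C57BL/6 mice. Non-parenchymal liver cells (all cells other than hepatocytes) had been sorted for binding of the duct antibody MIC1-1C3, for absence of CD26 and against blood cells, and then split by surface ST14 (matriptase, a membrane protease). The ST14high and the ST14low population are represented by 4 libraries each, called here replicates 1 to 4 by their label numbers. The labels give no age, no treatment, no pooling and no endothelial protein in the gate, and they do not say whether replicates came from separate animals, so the p-values weigh differences only against a spread between libraries that may be technical.

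As background, liver sinusoids are lined by a fenestrated endothelium that takes up waste macromolecules through scavenger receptors such as the stabilins and the mannose receptor. The veins and arteries of the liver, and the capillary plexus that surrounds the bile ducts, have a continuous endothelium, and endothelium of larger vessels stores von Willebrand factor together with P-selectin. Bile duct cells are epithelium and do not normally make these proteins.

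Regulatory sequence is shown, as description only, for the members found in the RefSeq promoter table (build GRCm38.p6). These were 5 of the 10: Stab1, Stab2, Clec4g, Kdr and Eng. Each line gives the 250 bases before the transcription start, 5′ to 3′ on the gene's strand. Capitals mark the word AGGAAG or its reverse complement CTTCCT, which holds the core bound by ETS factors, a family with known roles in endothelial transcription.
Stab1, chr14:31168642-31168891, minus strand: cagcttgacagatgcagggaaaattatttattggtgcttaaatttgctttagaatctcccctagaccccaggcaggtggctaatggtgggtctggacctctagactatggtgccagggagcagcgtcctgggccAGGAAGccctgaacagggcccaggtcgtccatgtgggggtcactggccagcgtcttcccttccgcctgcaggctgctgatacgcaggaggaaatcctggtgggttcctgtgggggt
Stab2, chr10:87007943-87008192, minus strand: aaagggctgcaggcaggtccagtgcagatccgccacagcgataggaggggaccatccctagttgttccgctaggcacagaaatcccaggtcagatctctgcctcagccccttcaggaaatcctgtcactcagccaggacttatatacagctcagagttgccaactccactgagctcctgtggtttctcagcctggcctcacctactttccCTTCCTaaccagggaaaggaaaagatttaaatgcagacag
Clec4g, chr8:3720652-3720901, minus strand: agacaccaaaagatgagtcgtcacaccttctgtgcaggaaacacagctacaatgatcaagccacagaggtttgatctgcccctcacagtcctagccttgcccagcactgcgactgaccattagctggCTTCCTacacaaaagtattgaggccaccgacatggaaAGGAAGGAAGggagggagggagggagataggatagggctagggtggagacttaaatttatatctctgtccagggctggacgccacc
Kdr, chr5:75978456-75978705, minus strand: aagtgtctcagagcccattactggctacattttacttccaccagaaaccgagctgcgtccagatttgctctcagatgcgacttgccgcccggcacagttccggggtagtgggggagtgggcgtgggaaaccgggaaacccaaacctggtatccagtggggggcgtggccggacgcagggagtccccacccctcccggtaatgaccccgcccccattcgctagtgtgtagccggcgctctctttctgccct
Eng, chr2:32646345-32646594, plus strand: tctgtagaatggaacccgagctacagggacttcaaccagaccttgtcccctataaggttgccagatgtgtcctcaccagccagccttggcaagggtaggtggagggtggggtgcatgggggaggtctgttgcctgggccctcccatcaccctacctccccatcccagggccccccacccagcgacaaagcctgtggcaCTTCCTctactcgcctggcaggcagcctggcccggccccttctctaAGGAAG
The word was found in 4 of the 5 windows, once each in Stab1 and Stab2, 3 times in Clec4g (with overlap between 2 of the matches) and 2 times in Eng, and not in Kdr. It was present in 29.5% of the 32851 windows of this length in the table. AGATAA or TTATCT, a word bound by GATA factors, was in 0 of the 5 windows and 9.99% of all, and ACAAAG or CTTTGT, a word bound by SOX factors, was in 1 of the 5 (Eng) and 16.5% of all. These are letter matches in short windows and carry no test, and their part in the levels of the genes was not tested.

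Levels are in CPM, read counts relative to library size, with library sizes scaled by edgeR's TMM factors. The 8 libraries held 6398307 to 42769988 counts with 1 transcript kept per gene. Markers of the labelled cell type were present: 15 genes of duct epithelium summed to 36390 to 60420 CPM in every library, with Epcam (an epithelial adhesion molecule) between 508.7 and 630.7 CPM. The members other than Vwf summed to 31.9 to 1206 CPM, so their transcripts were a small part of each library. In a bulk sort, fewer cells of a type and less RNA per cell cannot be told apart.

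In none of the 10 genes did the populations separate. The fitted values of 9 members lay below 0 (lower in ST14high) and that of Vwf above it, and the median of the 10 log2 fold changes was -0.86. Over all 13749 genes tested, 49.7% lay below 0 and the median was 0.0023. By edgeR's quasi-likelihood test, 0 of the 10 passed an adjusted p of 0.05, against a background of 0% of all genes, and DESeq2 and limma's voom test also called 0 of them (1.72% of genes with a DESeq2 adjusted p were called, and 0% in limma). At an unadjusted p under 0.05 there was 1 member, Gpr182, lower in ST14high, where 2.68% of all genes were, and 0 members were higher, where 6.89% of all genes were. In 0 members did all 4 libraries of a population lie beyond all 4 of the other, which 4.09% of all genes did upward and 2.33% downward. What the genes shared was spread: within ST14high the SD of log2 CPM was 0.61 to 4.12, against a median of 0.29 over all genes tested, and within ST14low it was 0.83 to 1.27 against 0.30.

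**Figure D1:**
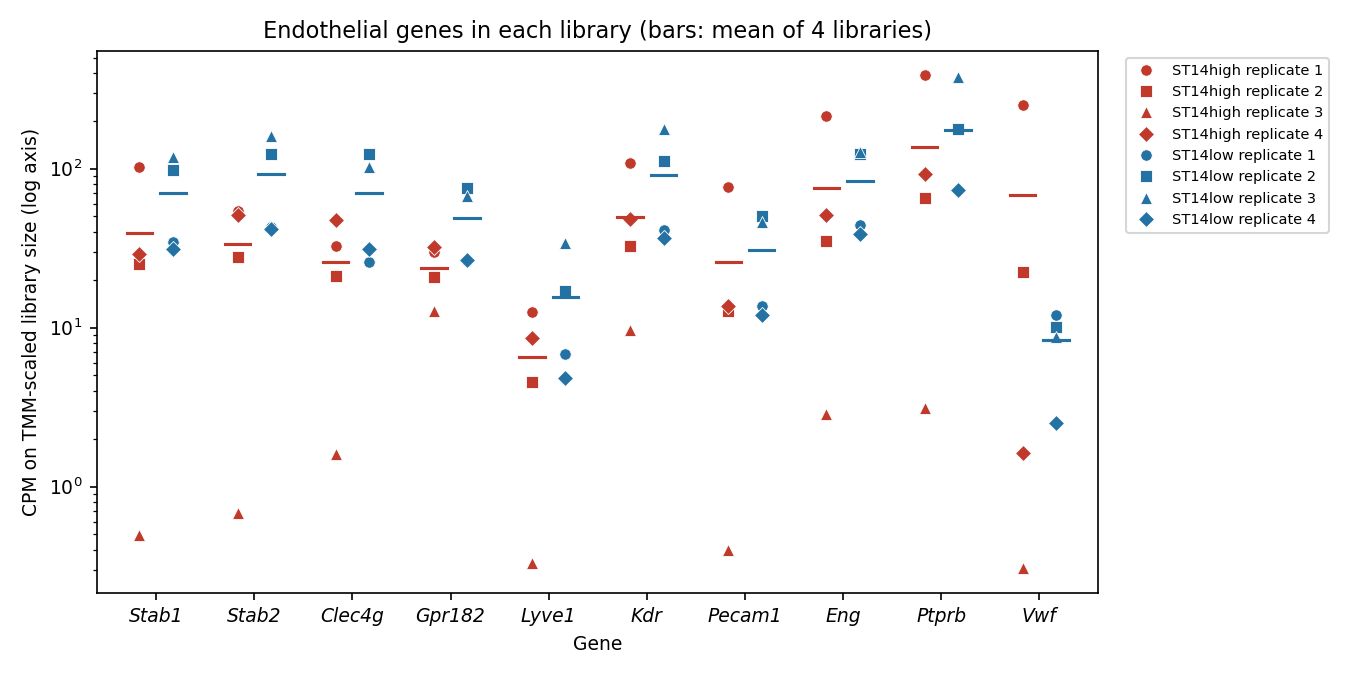
CPM of the 10 endothelial genes in each library on a log axis, with ST14high in red, ST14low in blue, a marker shape per replicate number and a bar at the mean of 4 libraries. ST14high replicate 3 was the lowest library for all 10 genes, and Vwf stood at 249.7 CPM in ST14high replicate 1 against at most 22.3 CPM elsewhere.

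Stab2 (stabilin-2, which clears hyaluronan; mm9 chromosome 10, 86303955 to 86470687) was at 54.3, 27.9, 0.684 and 50.8 CPM in ST14high replicates 1 to 4. In ST14low it was at 43.2, 123.5, 160.2 and 41.9 CPM. The populations overlapped between 41.9 and 54.3 CPM: ST14low replicates 2 and 3 were above every ST14high library, while ST14low replicates 1 and 4 lay among ST14high replicates 1, 2 and 4. The means were 33.4 ± 24.8 CPM (SD, n = 4) in ST14high and 92.2 ± 59.3 CPM (SD, n = 4) in ST14low. The log2 fold change was -1.46 (SE 0.91, 95% interval -3.50 to 0.57, edgeR adjusted p = 0.62).

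Stab1 (stabilin-1, the related receptor, also made by some macrophages; chromosome 14, 31952203 to 31981827) was at 101.8, 25.3, 0.495 and 28.9 CPM in ST14high. The ST14low libraries were at 34.4, 98.1, 117.8 and 31.3 CPM. ST14high replicate 1 thus stood with the 2 high ST14low libraries, which it did not do for Stab2. The log2 fold change was -0.85 (SE 1.00, edgeR adjusted p = 0.791), and -1.94 without ST14high replicate 1. The gene overlaps Nt5dc2 on the opposite strand by 108 bases, where reads could not be assigned without strand.

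Clec4g (the lectin LSECtin; chromosome 8, 3716071 to 3720651) was at 32.5, 21.1, 1.6 and 47.8 CPM in ST14high. In ST14low it was at 26.0, 122.7, 101.7 and 31.3 CPM. As for Stab2, only ST14low replicates 2 and 3 stood above all ST14high libraries (log2 fold change -1.45, SE 0.82, edgeR adjusted p = 0.598). Gpr182 (an endothelial receptor that binds chemokines; chromosome 10, 127186658 to 127188854) was at 29.7, 20.8, 12.8 and 32.2 CPM in ST14high. Its ST14low values were 26.2, 75.5, 67.3 and 26.6 CPM. Its spread within ST14high was the smallest of the 10 and its interval the narrowest, with a log2 fold change of -1.03 (SE 0.41, 95% interval -1.96 to -0.11, unadjusted p = 0.0321 and adjusted p = 0.481 in edgeR). Lyve1 (a hyaluronan receptor of sinusoidal and lymphatic endothelium; chromosome 7, 117994121 to 118006467) was the weakest of the sinusoidal genes. It was at 12.5, 4.57, 0.330 and 8.56 CPM in ST14high and 6.81, 16.9, 34.0 and 4.81 CPM in ST14low, again with ST14low replicates 2 and 3 highest (log2 fold change -1.26, SE 0.89, edgeR adjusted p = 0.664; -0.56 without ST14low replicate 3).

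In the 4 genes shared by sinusoidal and other vascular endothelium, ST14high replicate 1 was high beside ST14low replicates 2 and 3. Kdr (the VEGF receptor VEGFR2; chromosome 5, 76329299 to 76374453) was at 108.7, 32.6, 9.64 and 48.4 CPM in ST14high. In ST14low it was at 41.2, 111.7, 176.8 and 36.4 CPM (log2 fold change -0.87, SE 0.69, edgeR adjusted p = 0.696). Without ST14high replicate 1 the value was -1.59, and -0.35 without ST14low replicate 3. Pecam1 (the junction protein CD31; chromosome 11, 106515532 to 106576595) was at 76.4, 12.7, 0.401 and 13.6 CPM in ST14high. ST14low held 13.7, 50.3, 46.4 and 12.0 CPM, and here ST14high replicate 1 was the highest of all 8. Eng (endoglin, a co-receptor for BMP9; chromosome 2, 32502115 to 32538189, overlapping Fpgs on the other strand by 61 bases) was at 214.9, 35.1, 2.85 and 50.8 CPM in ST14high. In ST14low it was at 44.0, 122.9, 127.1 and 38.7 CPM. Ptprb (the phosphatase VE-PTP, which acts on VE-cadherin and TIE2; chromosome 10, 115738430 to 115826594) was at 385.9, 64.9, 3.14 and 92.4 CPM in ST14high. The ST14low libraries were at 73.5, 177.0, 374.3 and 73.5 CPM. In the authors' RPKM (reads relative to transcript length and library size), Ptprb was highest in ST14low replicate 3, at 35.37 against 32.79 in ST14high replicate 1. In CPM, ST14high held both the highest and the lowest library for Pecam1, Eng and Ptprb. Their log2 fold changes of -0.25, -0.13 and -0.35 (SE 1.05, 0.92 and 1.01; edgeR adjusted p = 0.956, 0.973 and 0.929) turned to 0.14, 0.25 and 0.03 without ST14high replicate 3, and were -1.78, -1.49 and -1.70 without ST14high replicate 1.

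Vwf (von Willebrand factor, the clotting protein stored by endothelium of larger vessels and by platelets; chromosome 6, 125502981 to 125636695) followed another order. It was at 249.7, 22.3, 0.306 and 1.63 CPM in ST14high. In ST14low it was at 12.0, 10.1, 8.78 and 2.53 CPM. ST14high replicates 1 and 2 were above all ST14low libraries and ST14high replicates 3 and 4 below them all. ST14low replicates 2 and 3, which were high for the sinusoidal genes, were not high for Vwf. The means were 68.5 ± 121 CPM (SD, n = 4) and 8.36 ± 4.11 CPM (SD, n = 4), with a log2 fold change of 3.04 (SE 1.53, 95% interval -0.38 to 6.45, edgeR adjusted p = 0.563). Without ST14high replicate 1 it was -0.06. Of the platelet genes, Pf4 (platelet factor 4) was at 1.01 CPM and Ppbp at 0.441 CPM in that library. The 10 listed platelet and megakaryocyte genes summed to 14.3 CPM there and 10.1 to 19.6 CPM in the others. The sum of 19.6 CPM, in ST14low replicate 3, held 13.6 CPM of Clec1b, which was at 1.77 CPM in ST14high replicate 1. The part of platelets in the Vwf value was not tested.

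**Figure D2:**
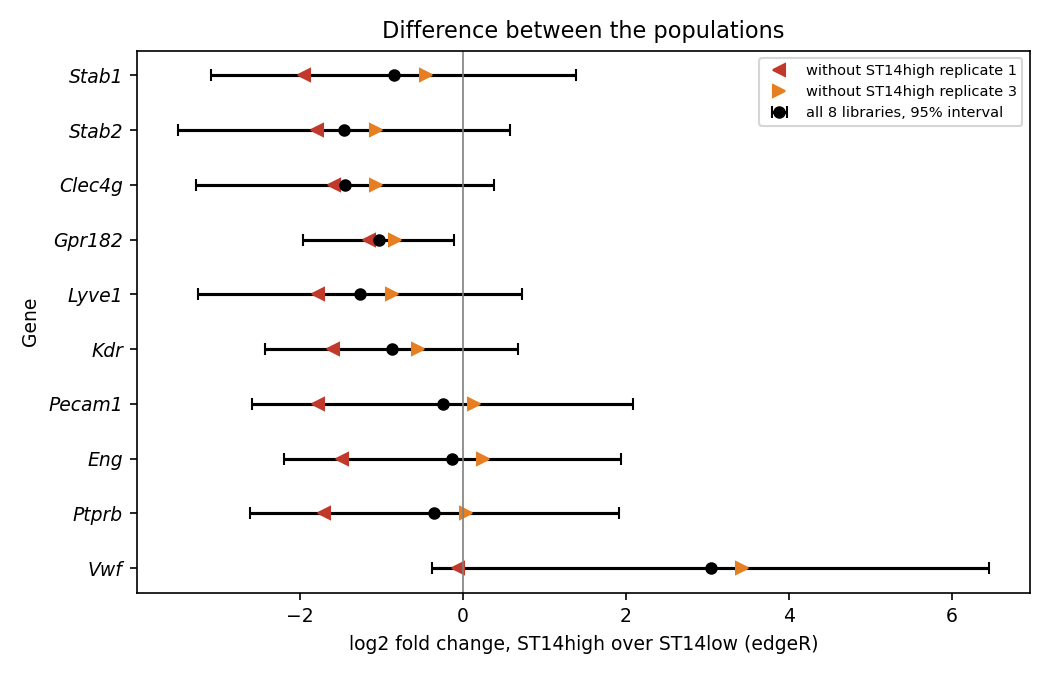
Log2 fold change of each gene, ST14high over ST14low, from edgeR: black points with 95% intervals for all 8 libraries, and triangles for the value without ST14high replicate 1 (pointing left) or without ST14high replicate 3 (pointing right). Without ST14high replicate 1 the value of Vwf was -0.06 and that of Pecam1 -1.78, while Clec4g and Gpr182 were at -1.58 and -1.15.

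Without ST14high replicate 1 all 10 members lay below 0, with a median of -1.65, where 52.2% of all genes lay below 0 (the all-gene median was -0.015). At an unadjusted p under 0.05, 2 members were lower, Gpr182 and Kdr, as were 3.65% of all genes, and edgeR's adjusted test called 0. Without ST14high replicate 3, 6 members lay below 0 with a median of -0.50, against 51.7% of all genes, and 0 were lower at an unadjusted p under 0.05, as were 2.42% of all genes. The sign of Stab1, Stab2, Clec4g, Gpr182, Lyve1 and Kdr did not turn in any setting run, while the sign of Pecam1, Eng, Ptprb and Vwf turned with the removal of a single library.

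Within a library, the level of a gene relative to Stab2 shows whether the genes kept 1 proportion, since gene length cancels when libraries are compared. In the 6 libraries other than ST14high replicates 1 and 3, CPM relative to Stab2 ran from 0.569 to 0.906 for Stab1, 0.602 to 0.994 for Clec4g, 0.420 to 0.745 for Gpr182 and 0.115 to 0.212 for Lyve1. It ran from 0.869 to 1.17 for Kdr, 0.268 to 0.455 for Pecam1, 0.793 to 1.26 for Eng and 1.43 to 2.34 for Ptprb. ST14high replicates 1 and 3 were left out after their values were seen. In the 6 libraries kept, the ratios of these 8 genes varied less than Stab2 itself, which ranged from 27.9 to 160.2 CPM.

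ST14high replicate 1 departed from the ranges of those 6 libraries for part of the genes. Gpr182 stood at 0.547 of Stab2 there, inside the range of the other 6, and Clec4g at 0.599, just below its range. Lyve1 stood at 0.23, just above its range. Stab1 stood at 1.88, Kdr at 2.0, Pecam1 at 1.41, Eng at 3.96 and Ptprb at 7.11, all further above theirs. Vwf relative to Stab2 was 4.6 in this library, 0.798 in ST14high replicate 2, 0.448 in ST14high replicate 3 (on 13 Vwf and 29 Stab2 reads), 0.279 in ST14low replicate 1 and 0.032 to 0.0816 in ST14high replicate 4 and the other ST14low libraries. The 11 listed pancreatic acinar genes summed to 9217 CPM in ST14high replicate 1, 1312 CPM in ST14high replicate 2 and 99.2 CPM in ST14low replicate 1. Each of the other 5 libraries had 5.84 CPM or less. The 3 libraries with the most acinar transcripts were thus those with the most Vwf, in the same order. The 16 genes of fibroblasts, stellate cells and mesothelial cells were also highest in ST14high replicate 1, at 3563 CPM in sum against 460.4 to 1235 CPM, and the median of their log2 fold changes was 2.54, or 1.38 without this library. Their part in the Vwf result was not tested.

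**Figure D3:**
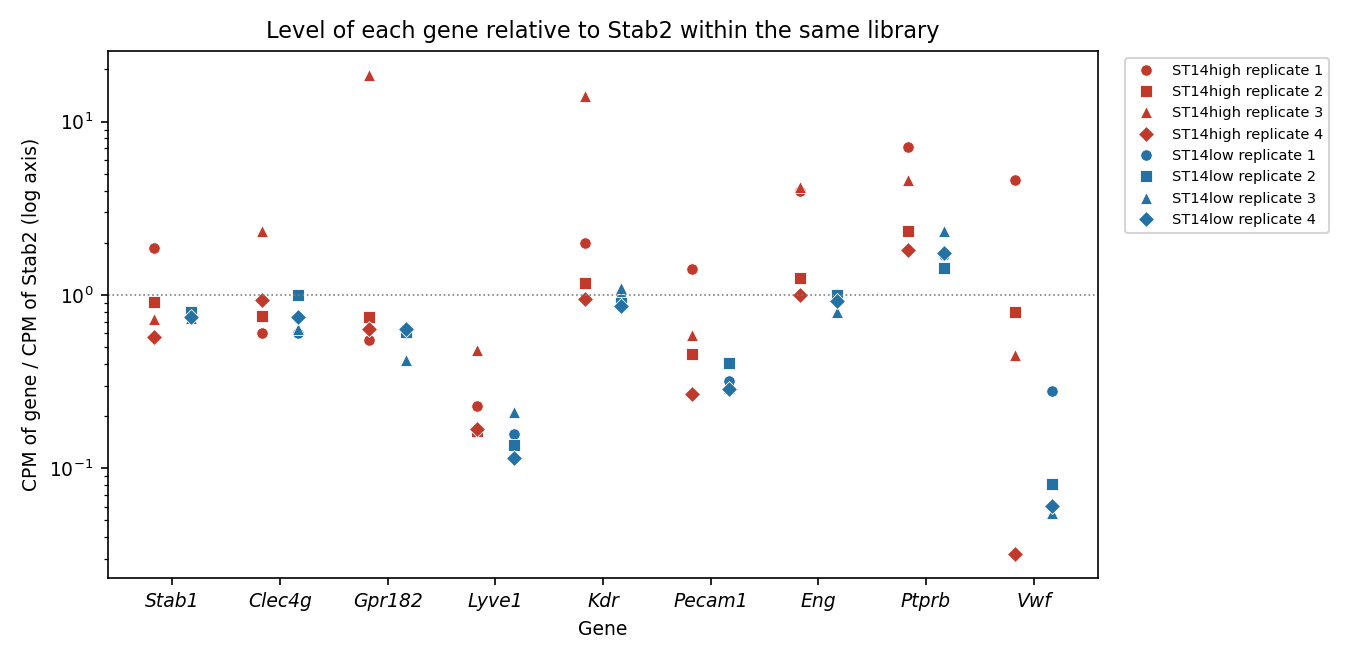
CPM of each gene divided by the CPM of Stab2 in the same library, on a log axis, with colours and shapes as for the levels and a dotted line at 1. In ST14high replicate 1 the ratio was 0.599 for Clec4g and 7.11 for Ptprb, and in ST14high replicate 3 it was 18.7 for Gpr182 and 14.1 for Kdr on 29 Stab2 reads.

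ST14high replicate 3 was the lowest library for all 10 members, which it was for 12.8% of all genes, and in 8 members it was at least 5-fold below every other library, as in 2.52% of all genes. The reads behind those 8 values were 21 for Stab1, 29 for Stab2, 68 for Clec4g, 14 for Lyve1, 17 for Pecam1, 121 for Eng, 133 for Ptprb and 13 for Vwf. Gpr182 and Kdr were the exceptions, with 541 and 409 reads (12.8 and 9.64 CPM), so that Gpr182 stood at 18.7 times and Kdr at 14.1 times Stab2. Genes of liver macrophages moved with the members in this library: Clec4f and Cd5l, both made by Kupffer cells, were at 0.542 and 0.0707 CPM there and at 13.5 to 171.8 CPM in the other 7. Of the 14 listed macrophage genes 12 were lowest in ST14high replicate 3, and the sum of 365.4 CPM left there came mostly from Csf1r (235.2 CPM) and Slc40a1 (122.5 CPM). All 7 tested leukocyte genes were lowest in that library too, with Ptprc (the pan-leukocyte antigen CD45) at 0 reads and the 9 listed genes at 0.471 CPM in sum. Of 12 hepatocyte genes 7 were lowest there and 1 was at least 5-fold below every other library: Cyp2e1 (a cytochrome P450, chosen after its values were seen) was at 1.67 CPM there and 14.1 to 122.1 CPM in the others, while Alb (albumin) was not lowest, at 9359 CPM. Of 15 duct genes 0 were lowest there.

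Library depth moved with the members as well. The 3 libraries with the fewest counts, ST14low replicate 3, ST14high replicate 1 and ST14low replicate 2 (6398307, 17418202 and 19878910), held the most endothelial transcript, at 1206, 1017 and 898.6 CPM for the 9 members other than Vwf. The deepest, ST14high replicate 3 with 42769988 counts, held the least, at 31.9 CPM. The 4 between, with 23321501 to 33014559 counts, held 245 to 373.4 CPM with no such order. Macrophage genes summed to 1283, 485.2 and 946 CPM in the 3 shallow libraries and to 423.2 to 638.1 CPM in the 4 between. Over the populations the macrophage sum was 430.4 ± 50.3 CPM (SD, n = 4) in ST14high and 851 ± 336 CPM (SD, n = 4) in ST14low, with 13 of 14 genes below 0 and a median of -1.92 on the log2 scale. The leukocyte list had a median of -1.24 over 7 genes, the platelet list -0.49 over 5, the hepatocyte list -0.53 over 12 and the duct list -0.06 over 15. The part of depth and of these other cell types in the endothelial values was not tested.

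**Figure D4:**
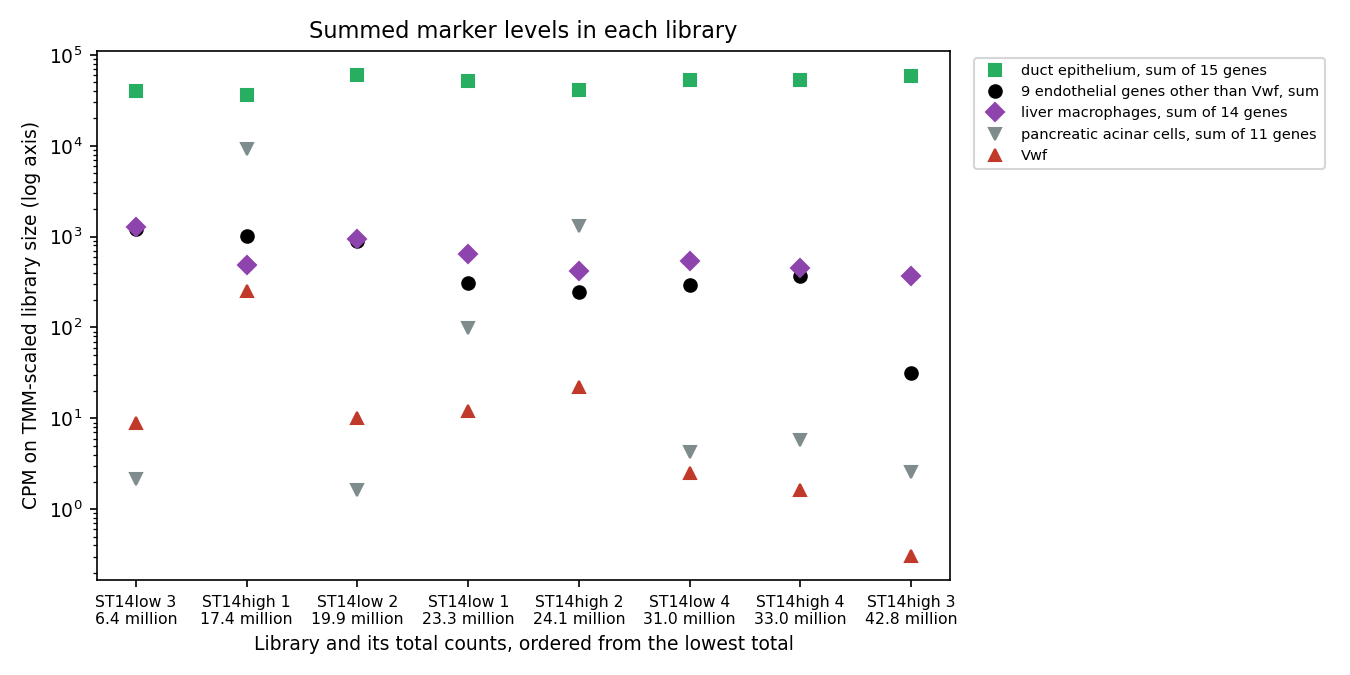
Summed CPM of marker lists and the CPM of Vwf in each library on a log axis, with libraries ordered from the fewest to the most total counts. The sum of 9 endothelial genes (black) was 1206 CPM in the shallowest library and 31.9 CPM in the deepest, while Vwf (red) was highest in ST14high replicates 1 and 2, where the acinar sum (grey) was 9217 and 1312 CPM.

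Per transcript length, from the authors' RPKM (reads relative to transcript length and library size), Clec4g was the most abundant member in both populations, at 28.1 ± 21.6 RPKM (SD, n = 4) in ST14high and 77.9 ± 53.3 RPKM (SD, n = 4) in ST14low. In ST14low it was followed by Gpr182 (30.4), Eng (27.4), Kdr (21.2), Stab2 (16.5), Ptprb (16.4), Stab1 (12.9), Pecam1 (11.1), Lyve1 (6.61) and Vwf (1.22 RPKM). Neighbours in this order overlapped in their 4 libraries, except Lyve1, whose lowest library at 2.09 RPKM was above the highest of Vwf at 1.76 RPKM. In ST14high the order was Clec4g, Eng (23.5), Gpr182 (14.6), Ptprb (12.0), Kdr (11.04), Vwf (9.14), Pecam1 (8.77), Stab1 (6.80), Stab2 (5.83) and Lyve1 (2.65 RPKM), and all neighbours overlapped. The place of Vwf rested on ST14high replicate 1: without that library its mean was 1.21 ± 1.86 RPKM (SD, n = 3), the lowest of the 10.

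Most other genes of the sinusoid varied as the members other than Vwf did. Of the exceptions, Wnt9b, Rspo3 and Gata4 lay above 0 (log2 fold change 2.3, 2.42 and 0.285). F8, Wnt2 and Tspan7 were not lowest in ST14high replicate 3. In the sinusoidal list 14 of 17 tested genes lay below 0 (list median -0.69 on the log2 scale). edgeR's adjusted test and limma called 0 of the 17, against 0% and 0% of all genes. DESeq2 gave an adjusted p for 16 of them and called 0, against 1.72% of all genes with one. At an unadjusted p under 0.05 there were 0, where 6.89% of all genes were higher and 2.68% lower. Without ST14high replicate 1, 16 lay below 0 (list median -1.29). In that fit 2 were lower at an unadjusted p under 0.05, as were 3.65% of all genes. Without ST14high replicate 3, 14 lay below 0 (list median -0.37). ST14high replicate 3 was lowest for 14 of the 17 and at least 5-fold below every other library for 8, as for 12.8% and 2.52% of all genes. Mrc1 (the mannose receptor) was at 42.1, 18.8, 1.58 and 44.6 CPM in ST14high and 35.2, 84.9, 172.2 and 35.7 CPM in ST14low. Dnase1l3 (a secreted nuclease) was at 51.6, 27.2, 3.89 and 66.7 CPM in ST14high and 50.7, 147.0, 163.4 and 39.4 CPM in ST14low. Both stood at 0.67 to 1.31 of Stab2 in all libraries but ST14high replicate 3. Ehd3 (a membrane trafficking protein) ranged from 9.60 CPM in ST14high replicate 3 to 194.7 CPM in ST14low replicate 3. Tspan7 and Ppap2b, the 2 most abundant genes of the list, had a narrower range, at 152 to 265.2 CPM and 78.7 to 191.5 CPM over the 8 libraries. Ppap2b was still lowest in ST14high replicate 3 and highest in ST14low replicate 3, and Tspan7 was lowest in ST14high replicate 1.

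Of 40 tested genes of vascular endothelium, 26 lay below 0 with a median of -0.26, or 36 with a median of -1.24 without ST14high replicate 1 and 19 with a median of 0.09 without ST14high replicate 3. edgeR and limma called 0, and 3 had an unadjusted p under 0.05, all higher (Selp, Thbd and Cd34), as were 6.89% of all genes. DESeq2 gave an adjusted p for 35 of the 40 and called 1, Thbd (1.72% of all genes with one). Without ST14high replicate 1, 10 of the 40 were lower at an unadjusted p under 0.05, as were 3.65% of all genes. In ST14high replicate 3, 33 of the 40 were lowest and 19 at least 5-fold below every other library, which 12.8% and 2.52% of all genes were. Cdh5 (VE-cadherin, the endothelial junction cadherin) was at 87.5, 13.7, 0.424 and 32.0 CPM in ST14high and 24.9, 73.1, 74.4 and 17.9 CPM in ST14low. Gpr116 (an adhesion receptor) ranged from 8.68 CPM in ST14high replicate 3 to 128.5 CPM in ST14high replicate 1. Ephb4 (a receptor known for vein identity) and Ecscr were not lowest in ST14high replicate 3, at 165.4 and 57.2 CPM there. Efnb2, the ligand of Ephb4 and known for artery identity, was lowest there but close to the rest, at 34.2 CPM against 40.3 to 47.4 CPM in 6 libraries and 148.6 CPM in ST14high replicate 1.

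The following genes were chosen after their values were seen, for a high level in ST14high replicate 1, as in Vwf. ST14high replicate 1 was at least 5-fold above every other library in 1 member (Vwf), in 2 sinusoidal genes (Wnt9b and Rspo3, Wnt pathway signals known from central vein endothelium) and in 5 vascular genes (Sox17, Cd34, Apold1, Bmx and Selp), as in 1.77% of all genes. Selp (P-selectin, stored together with von Willebrand factor) was at 48.5, 3.73, 0 and 0.474 CPM in ST14high and 0.437 to 1.43 CPM in ST14low. Sele (E-selectin, a leukocyte adhesion receptor of activated endothelium) was under the low-count filter, at 22.2, 1.87, 0 and 0 CPM in ST14high and at most 0.593 CPM in ST14low. Rspo3 was at 57.9 CPM in ST14high replicate 1 and 0.0943 to 3.89 CPM elsewhere. Sox17 (a transcription factor of arterial endothelium, though not of it alone) was at 50.9 CPM against 0.0236 to 3.79 CPM. Which cells these transcripts came from was not tested.

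Cd34 and Thbd were the 2 of 40 vascular genes whose libraries did not overlap, both higher in ST14high, as 4.09% of all genes were; neither passed edgeR's adjusted test. Cd34 (a sialomucin of vessels and also of fibroblasts) was at 98.8, 19.0, 16.9 and 18.3 CPM in ST14high and 3.28, 3.53, 7.55 and 3.96 CPM in ST14low (log2 fold change 3.10, SE 0.64, edgeR adjusted p = 0.192). Thbd (thrombomodulin, an anticoagulant receptor of vessels and mesothelium) was at 111.7, 13.9, 13.9 and 23.6 CPM in ST14high and 5.79, 12.6, 11.9 and 6.06 CPM in ST14low (log2 fold change 2.18, SE 0.69, edgeR adjusted p = 0.365). Without ST14high replicate 1 the log2 fold changes were 2.02 for Cd34 and 0.93 for Thbd. Both were at over 13 CPM in ST14high replicate 3, where Cdh5 was at 0.424 CPM. Of the 16 genes of fibroblasts, stellate and mesothelial cells, 8 also lay higher in every ST14high library than in any ST14low library; their part in Cd34 and Thbd was not tested.

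Among genes of lymphatic endothelium, 5 of 7 tested lay above 0 with a median of 0.21. edgeR and limma called 0, and 3 had an unadjusted p under 0.05 (Pdpn, Sema3d and Foxc2, all higher, as were 6.89% of all genes). DESeq2 gave an adjusted p for 6 of the 7 and called Pdpn and Sema3d (1.72% of all genes with one). The most abundant were Prox1, a transcription factor that hepatobiliary epithelium also makes (562 ± 155 and 556 ± 158 CPM, SD, n = 4), Itga9 (206 ± 39.1 and 273 ± 51.5 CPM) and Reln (99.9 ± 20.5 and 105 ± 28.8 CPM). None of the 7 was lowest in ST14high replicate 3, and the defining lymphatic chemokine gene Ccl21a had 0 reads in all 8 libraries. Pdpn (podoplanin, also a mesothelial protein) was at 21.0 to 47.6 CPM in ST14high and 7.52 to 16.3 CPM in ST14low (log2 fold change 1.31, SE 0.33, edgeR adjusted p = 0.259). Sema3d (a semaphorin) was at 6.95 to 59.5 CPM and 1.36 to 7.55 CPM.

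Growth factors of endothelium, their receptors and further signalling genes (Smad, Id and Notch genes among them) were read from a list of 26, here the signalling list. Flt1, Tek, Tie1 and Dll4 were also counted in the vascular list, and Flt4 in the sinusoidal list, so these lists are not separate. Of the 26 genes 23 were tested, 10 below 0 and 13 above, with a median of 0.04. edgeR and limma called 0, 2 genes were higher and 2 lower at an unadjusted p under 0.05, as were 6.89% and 2.68% of all genes, and DESeq2 called 3 (Vegfa higher, Id3 and Smad6 lower; 1.72% of all genes). In the fit without ST14high replicate 1, 6 of the 23 were lower at an unadjusted p under 0.05, as were 3.65% of all genes. Vegfa, the ligand of Kdr and Flt1, was at 795.3 to 932.2 CPM in ST14high and 474.3 to 582.8 CPM in ST14low (log2 fold change 0.67, SE 0.13, edgeR adjusted p = 0.192). Vegfa did not follow its receptors: it was at 922.7 CPM in ST14high replicate 3. Flt1 (the VEGF receptor VEGFR1) was at 1.06 CPM there and 51.6 CPM in ST14high replicate 1. Tek (the angiopoietin receptor TIE2) was at 1.20 CPM and 59.7 CPM in the same libraries, whereas its ligand gene Angpt1 was at 210.4 and 137 CPM. Id3, a target of BMP signals, was at 136.8 to 177.6 CPM in ST14high and 203.5 to 244.3 CPM in ST14low (log2 fold change -0.53, SE 0.13, edgeR adjusted p = 0.246), while Id1 overlapped at 167.8 to 307.1 and 191.1 to 295.2 CPM. Tgfbr2 was at 198.8 CPM in ST14high replicate 1 and 69.5 to 86.7 CPM in the others.

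Likeness was measured as Pearson's r of log2 CPM over the 8 libraries with the mean standardised profile of the 10 members, among 11362 other genes above a mean of 5 CPM. The 8 nearest were Gm4980 (0.997), Mmrn2 (0.994), Robo4 (0.992), Ehd3 (0.991), Cd300lg (0.991), Eltd1 (0.991), Cdh5 (0.989) and Arhgef15 (0.984). All 8 were at 0.259 to 9.60 CPM in ST14high replicate 3. Without ST14high replicates 1 and 3 the 8 values were 0.925 to 0.998. Against the mean of the other members except Vwf, each sinusoidal member and Kdr, Pecam1, Eng and Ptprb had r of 0.853 (Gpr182) to 0.989 (Lyve1), and Vwf 0.645, or 0.079 for Vwf without ST14high replicates 1 and 3. The points share libraries and depth, ST14high replicate 3 lies far from the rest, and these values describe the 8 libraries only.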

How the data were processed

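Raw read counts per RefSeq transcript, whole numbers deposited by the authors without normalization, were analysed for 8 libraries. The authors also deposited RPKM values beside the counts, per the file headers; these were used only to order levels between genes and, for the longest-transcript setting, to rank transcript lengths. Sorted cells went into TRIzol and libraries were made with a TruSeq kit, per the labels' protocols. The tools named are Bowtie 1.0.0 and CASAVA 1.8.2, with build mm9, per the submitters' processing notes. Which program counted reads, and whether by strand, is not given in the sources used here. Of 26005 transcripts, the one with the most reads was kept for each of 20377 symbols. Deposited starts were read as 0-based and are printed 1-based.

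Counts were tested with edgeR 4.0.16 (R 4.3.3): TMM factors, filterByExpr, quasi-likelihood test with the population as the only term, two-sided, Benjamini-Hochberg adjusted over all 13749 genes tested, threshold 0.05. SE were derived from the F statistic. DESeq2 1.42.0 (Wald) and limma 3.58.1 (voom with quality weights) were alternatives, as were other size factors, other low-count filters, the longest transcript, a replicate block and the removal of each library in turn. Leaving out ST14high replicates 1 and 3 together was chosen after seeing the data. The procedure was tested on simulated data with the same spread setting for all genes and no library set apart. That setting differs from the members, so it does not show how the procedure works on them. Motifs were searched with Python 3.11.15.

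The members, gene lists and tests were chosen with earlier results of these data known. Named were all members, the 5 tested genes of highest mean CPM in each endothelial list, the 8 genes most like the members, and Epcam, Clec4f, Cd5l, Ptprc and Pf4. Other names were chosen after their values were seen. Tfec, listed for sinusoids, was not matched to a symbol. Depth sets the precision: the shallowest library has 6398307 counts, and low values there rest on few reads.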

Additional observations from a re-analysis of the deposited data

Results flagged for a closer look

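In a check for a library far from the other 3 of its population, run on CPM for each of the 10 genes in both populations (20 groups), 1 group held such a library. Vwf was at 249.7 CPM in ST14high replicate 1, where the nearest other ST14high library was at 22.3 CPM, a gap of 0.912 of the population's whole range; this passed Dixon's critical value at the 95% level. Chance marks about 1 in 20 such groups.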

How the results depend on the processing

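No member was called in any of the 18 other settings, and the log2 fold changes of Stab1, Stab2, Clec4g, Gpr182, Lyve1 and Kdr kept their sign in all of them. Leaving out single libraries moved Pecam1 from -1.78 to 0.14, Eng from -1.49 to 0.25, Ptprb from -1.70 to 0.33 and Vwf from -0.06 to 3.44. Pecam1 turned without ST14high replicate 3 (0.14) or ST14low replicate 2 (0.09) or 3 (0.01). Eng turned without ST14high replicate 2 (0.1), 3 (0.25) or 4 (0.02) or ST14low replicate 2 (0.1) or 3 (0.14). Ptprb turned without ST14high replicate 3 (0.03) or ST14low replicate 3 (0.33), and Vwf without ST14high replicate 1 (-0.06). With all 8 libraries kept, limma's quality weights gave 0.29 for Vwf, -2.04 for Stab1, -2.21 for Stab2, -1.47 for Pecam1, -1.17 for Eng and -1.51 for Ptprb. The replicate block gave 0.35 for Vwf, -1.07 for Pecam1 and -0.89 for Eng. Without ST14high replicates 1 and 3 the values were 0.52 for Vwf, -1.21 for Pecam1, -0.95 for Eng and -1.14 for Ptprb. When single libraries were left out, the median of the members ran from -1.65 to -0.42 and of the sinusoidal list from -1.29 to -0.37. The median of the vascular list ran from -1.24 to 0.09 and of the signalling list from -0.21 to 0.2. That of the lymphatic list ran from -0.13 (without ST14low replicate 2) to 1.22 (without ST14low replicate 3). The median of the signalling list, 0.04 in the fit reported, was -0.0038 with upper-quartile factors and -0.19 with limma. It was -0.14 with the replicate block and -0.41 without ST14high replicates 1 and 3. Over all genes edgeR called 0, DESeq2 234, the replicate block 2, and edgeR without ST14high replicates 1 and 3 called 12. Over all genes tested, same-numbered libraries did not deviate together (r of 0.052, 0.052, -0.125 and 0.005 for numbers 1 to 4). Such an r cannot show whether they shared a preparation, which may appear in few genes. The replicate block thus rests on the label number only. The cause of these changes was not tested. With 4 libraries a population and SE of 0.41 to 1.53, the 95% intervals of all members but Gpr182 spanned 0.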
